A study of Mus musculus with 12 samples.

Results

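Numbered Zfp genes are mouse genes whose symbol is Zfp (zinc finger protein) followed by a number. The members described here were the rows of a gene count table with such a symbol, leaving out Zfp36, whose mean raw count over 12 libraries was 500 or more. Of 366 numbered Zfp genes in a table of 27179 genes, 97 met this rule, with mean counts from 501.75 (Zfp943) to 6981.5 (Zfp106) and a median of 852. They were selected on this measured level, so levels are given as a description. The family itself was picked with earlier results of the comparison between treatments known, so its split into lower and higher genes is a description too and not independent evidence. Just inside the minimum lay Zfp943, Zfp521 and Zfp787, with mean counts of 501.75, 516 and 520.4, and just outside it lay Zfp652, Zfp160 and Zfp414, with 499.1, 498.9 and 498.5. All 97 members passed the filter on low counts and were tested.

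The libraries were made from epididymal white adipose tissue (eWAT), the fat pad attached to the epididymis, of male C57BL/6J mice on a chow diet, with 1 mouse per library. The vehicle group was 6 mice injected into the peritoneum with saline, and the epinephrine group was 6 mice injected in the same way with sodium epinephrine at 0.5 mg/kg of body weight. Epinephrine is the adrenal hormone that acts through alpha- and beta-adrenergic receptors, and the comparison addresses how the fat pad's RNA responds to it. Fat was collected 1 h after either injection. The labels list ages of 12 to 17 weeks for vehicle and 18 to 23 weeks for epinephrine, in steps of exactly 1 week over the 12 samples in order. Whether these are the true ages is not known, and as listed they cannot be told apart from treatment.

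Each library held from 24821601 to 34405433 counts over all genes. The 4 immediate early genes that served as a check of the labels (Fos, Fosb, Jun and Nr4a1) were all higher after epinephrine, with a summed level of 132 to 403 CPM (scaled counts, with library sizes corrected by TMM factors) in vehicle and 2445 to 5710 CPM in epinephrine libraries. All 7 adipocyte markers were detected, at a summed 7448 to 25772 CPM in vehicle and 11150 to 26203 CPM in epinephrine libraries. Epididymis and testis markers summed to 10.5 to 43144 CPM in vehicle and 32.6 to 33126 CPM in epinephrine libraries, and 0 of the 13 tested passed the test. The epididymal gene Gpx5 held 1.98% of counts in vehicle 2, 1.09% in epinephrine 1 and 0.930% in epinephrine 2, and no more than 0.398% elsewhere. Of the other markers fixed for macrophages, T and NK cells, B cells, endothelium, fibroblasts, mesothelium and smooth muscle, Ncr1 was lower and Tagln was higher. In bulk tissue, fewer cells of a type and less RNA per cell cannot be told apart.

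A C2H2 zinc finger is a short protein fold in which paired cysteines and paired histidines hold a zinc ion, and arrays of such fingers read DNA sequence. Many of the proteins also carry a KRAB (Krüppel-associated box) domain, which recruits the corepressor TRIM28 and, through it, the histone methyltransferase SETDB1 and heterochromatin proteins, and many KRAB proteins silence transposable elements. Others lack KRAB and act as activators, as RNA-binding or ribosome-associated proteins, or as ubiquitin ligases. In fat, several of these genes are known for the commitment of precursor cells to adipocytes and for the choice between white and thermogenic programmes.

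Among the 97 members, 12 were lower and 2 were higher after epinephrine by edgeR's quasi-likelihood test, with Benjamini-Hochberg adjustment over all 16175 tested genes and a threshold of 0.05. That is 12.4% of members lower and 2.06% higher, beside 3.58% of all tested genes lower and 2.65% higher. Among the 8559 tested genes with a mean count of at least 500, 2.56% were lower and 3.49% were higher. In 80 members the log2 fold change was negative and in 17 it was positive, where 50.2% of all tested genes had a negative value. The members' median log2 fold change was -0.16 (quartiles -0.28 and -0.06), and the median of all tested genes was -0.0006. Changes were small: values ran from -0.68 (Zfp12) to 0.57 (Zfp655), no member reached a 2-fold change, and 25 members lay within 0.1 of 0. Among the 83 members that did not pass, 68 had a negative and 15 a positive log2 fold change. In 9 of the 97 members every vehicle library stood above every epinephrine library, beside 2.74% of all tested genes. All 9 were among the 12 called lower, and of the 579 genes called lower in all, 377 had groups apart. In 0 members the groups were apart in the other direction, beside 2.04% of all tested genes.

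The scaling moved these counts. With library size alone in place of TMM (trimmed mean of M-values) scaling, 30 members were lower and 2 higher, while all tested genes shifted to a median of -0.11 and split into 1466 lower and 361 higher, against 579 and 428 with TMM. The members' median was -0.26 on that scale. The TMM factors themselves were 1.04 ± 0.047 in vehicle and 0.964 ± 0.038 in epinephrine libraries (SD, n = 6 each). Under all 3 other scalings between 78 and 86 members had a negative value. With the replicate number as a replicate block, 8 members were lower and 2 higher. Single libraries moved the counts as well: leaving out 1 library gave from 7 lower members (without vehicle 4) to 24 (without epinephrine 1), and 27 were lower without the 3 libraries rich in Gpx5.

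**Figure D1:**
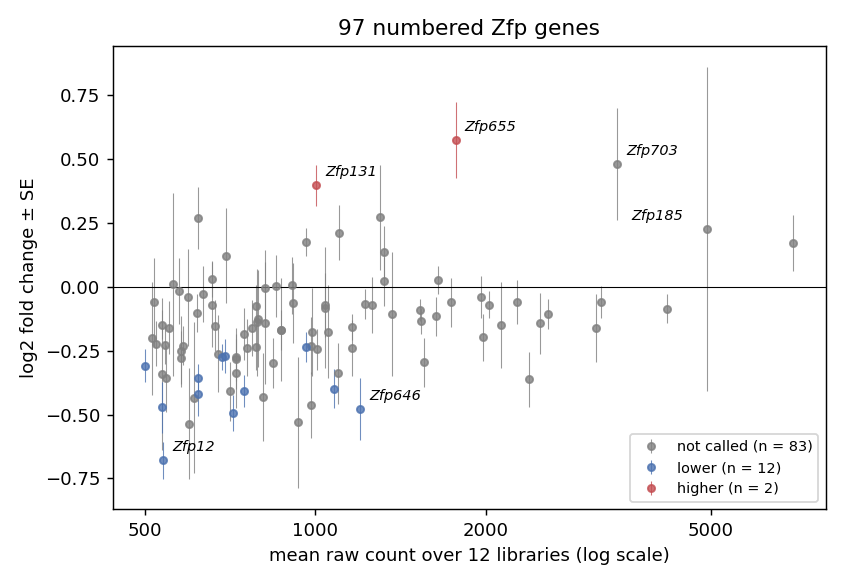
Log2 fold change (epinephrine against vehicle, vertical axis, ± SE) of each of the 97 members against its mean raw count over 12 libraries (horizontal log axis). Blue points passed the test as lower (12), red as higher (2), and grey points did not pass (83). Most points lie below 0, and Zfp12 is the lowest at -0.68.

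Members with a KRAB match made up 7 of the 12 that fell. A match to the core of the KRAB domain was found in the longest annotated coding sequence of 19 members, called KRAB members here. The match can miss a KRAB domain whose core departs from the pattern. Members without a match may therefore still carry one. Of these 19, 7 were lower and 0 were higher (0 higher at an unadjusted p under 0.05 and 0 with DESeq2 or limma), 18 had a negative log2 fold change, and the median was -0.26. Among the 78 members without a match, 5 were lower and 2 were higher, 62 had a negative value, and the median was -0.15. That is 36.8% lower with a match and 6.41% without one, beside 2.56% of all tested genes with a mean count of at least 500. Higher were 0% and 2.56%, beside 3.49% of all tested genes at that level. The difference between members with and without a match was not tested. The split of the calls depended on the fit: 3 members with a match and 5 without were lower with the replicate block, 10 and 20 with library-size scaling, and 8 and 19 without the libraries rich in Gpx5. The medians in these 3 fits ran from -0.37 to -0.26 with a match and from -0.26 to -0.15 without one. The 7 KRAB members that fell are shown by the coding bases of the KRAB core by which they were grouped. The KRAB members that did not pass carry this core as well. Each line reads 5′ to 3′ along the coding strand (GENCODE M21, GRCm38), and the capitals mark the tryptophan codon that ends the core.
Zfp12: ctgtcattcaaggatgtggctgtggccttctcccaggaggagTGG
Zfp866: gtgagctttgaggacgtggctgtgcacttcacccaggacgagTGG
Zfp426: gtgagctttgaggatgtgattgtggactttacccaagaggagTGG
Zfp715: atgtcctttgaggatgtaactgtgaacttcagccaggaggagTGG
Zfp943: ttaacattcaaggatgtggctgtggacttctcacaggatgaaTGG
Zfp267: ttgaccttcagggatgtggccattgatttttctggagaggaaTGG
Zfp777: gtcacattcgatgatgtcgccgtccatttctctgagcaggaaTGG
In Zfp12, Zfp866, Zfp715, Zfp943 and Zfp267 all 12 scored places matched, and in Zfp426 and Zfp777 11 did. All 12 also matched in Zfp266, Zfp316, Zfp386, Zfp809, Zfp869 and Zfp871, which did not pass the test.

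Zfp12 (chr5:143235138-143248834, 15 fingers) fell the furthest of the members. Its level ran from 21.7 to 24.95 CPM (median 22.6) in vehicle and from 12.5 to 15.9 CPM (median 14.5) in epinephrine libraries. The lowest vehicle library thus stood above the highest epinephrine library. The gene fell by 37.5%, a log2 fold change of -0.68 ± 0.0719 (SE, n = 6 per group; edgeR adjusted p = 0.000281). Its adjusted p stayed below 0.05 whichever single library was left out (0.000503 to 0.00136).

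Zfp866 (chr8:69761324-69774911, 12 fingers) ran from 26.3 to 32.2 CPM (median 29.8) in vehicle and from 18.1 to 21.9 CPM (median 21.6) in epinephrine libraries. The groups were apart, with a log2 fold change of -0.49 ± 0.0691 (edgeR adjusted p = 0.0015). Of its 50-base stretches, 12.0% also occur in another annotated transcript, most in the gene model Gm20422, so its counts are less certain. Zfp426 (chr9:20468549-20492746, 11 fingers) ran from 24.5 to 28.0 CPM (median 26.4) in vehicle and from 20.5 to 22.6 CPM (median 22.1) in epinephrine libraries. These groups did not overlap either, and Zfp426 changed by -0.27 ± 0.0503 (edgeR adjusted p = 0.00733, 0.0598 once the replicate block was added). Zfp715 (chr7:43296522-43313300, 18 fingers) ran from 21.8 to 27.9 CPM (median 25.1) in vehicle and from 16.1 to 20.7 CPM (median 19.0) in epinephrine libraries. Every vehicle library was above every epinephrine library, with a change of -0.42 ± 0.0834 (edgeR adjusted p = 0.0113).

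Zfp267 (chr3:36151080-36170341, 14 fingers), the member with the lowest level per length of those that changed, ran from 18.3 to 26.0 CPM (median 21.2) in vehicle and from 13.9 to 17.5 CPM (median 15.5) in epinephrine libraries. The groups were apart and differed by -0.47 ± 0.1 (edgeR adjusted p = 0.0158, 0.0676 with the replicate block and 0.0664 without vehicle 4). Zfp943 (chr17:21962559-21994366, 11 fingers) ran from 17.0 to 21.2 CPM (median 19.6) in vehicle and from 14.7 to 17.4 CPM (median 15.4) in epinephrine libraries. Only its lowest vehicle library, vehicle 5, and its highest epinephrine library, epinephrine 6, overlapped. The change was -0.31 ± 0.0649 (edgeR adjusted p = 0.0148, 0.052 once the replicate block was added), and leaving out vehicle 4 or epinephrine 4 ended the call, with adjusted p up to 0.0657. Zfp777 (chr6:48017660-48050004, 9 fingers) ran from 25.1 to 28.9 CPM (median 26.2) in vehicle and from 19.0 to 24.6 CPM (median 22.3) in epinephrine libraries. Its groups did not overlap and differed by -0.27 ± 0.0664 (edgeR adjusted p = 0.0327, 0.0686 once the replicate block was added), but 10 of the 12 fits that left out a library ended the call, with adjusted p up to 0.104.

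The 12 KRAB members that did not pass included the most abundant of them. Zfp445, which protects genomic imprints, had a log2 fold change of -0.14 ± 0.118 (edgeR adjusted p = 0.653), with 71.0 to 112 CPM in vehicle and 71.5 to 95.2 CPM in epinephrine libraries. For Zfp809, which silences endogenous retroviruses, the value was -0.07 ± 0.125 (edgeR adjusted p = 0.887). Of the list of silencing genes only Zfp445 and Zfp809 met the rule, and neither passed edgeR, DESeq2 or limma, nor an unadjusted p under 0.05. Among the listed genes that did not meet the rule, Zfp932 was lower (-0.84 ± 0.179, edgeR adjusted p = 0.0151), at a mean count of 32.4. The others were not called. Zfp869 was the single KRAB member with a positive value, 0.21 ± 0.109 (edgeR adjusted p = 0.361). It lies beside Zfp866, which fell, in the same run of neighbours on chromosome 8.

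**Figure D2:**
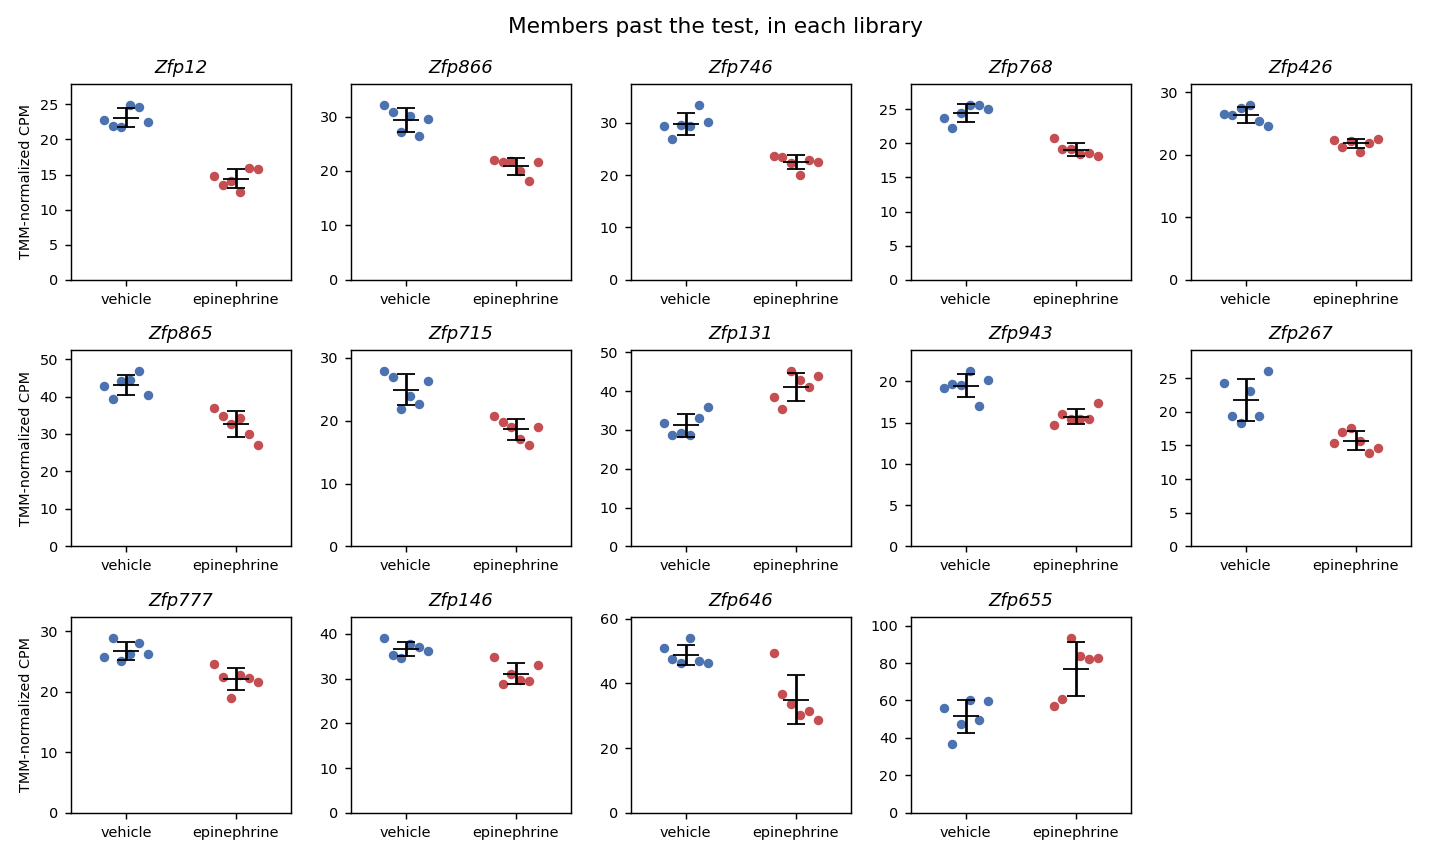
Level (TMM-normalized CPM, vertical axis from 0) of the 14 members that passed the test, in each of the 6 vehicle (blue) and 6 epinephrine (red) libraries, in order of p. Each point is 1 library, in the order of its replicate number, and bars show the mean ± SD. The groups of Zfp12 are well apart (21.7 to 24.95 against 12.5 to 15.9 CPM), while those of Zfp646 and Zfp655 overlap.

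Without a match to the KRAB pattern, 5 members fell, and some of these may still carry a KRAB domain that the pattern missed. Zfp746 (chr6:48062391-48086986), also known as PARIS, is a Parkin substrate that represses the gene of the coactivator PGC-1alpha. Zfp746 ran from 26.9 to 33.4 CPM (median 29.5) in vehicle and from 19.9 to 23.7 CPM (median 22.6) in epinephrine libraries, with no overlap. Its log2 fold change was -0.41 ± 0.063 (edgeR adjusted p = 0.00275), a fall by 24.6%. Zfp768 (chr7:127342795-127345314) ran from 22.2 to 25.7 CPM (median 24.8) in vehicle and from 18.2 to 20.8 CPM (median 18.9) in epinephrine libraries. Again the groups did not overlap, and the change was -0.36 ± 0.0559 (edgeR adjusted p = 0.00293). Zfp865 (chr7:5020376-5033226, 20 fingers) ran from 39.5 to 46.8 CPM (median 43.5) in vehicle and from 27.1 to 37.0 CPM (median 33.5) in epinephrine libraries. It changed by -0.40 ± 0.0778 (edgeR adjusted p = 0.0104) with groups apart, but 19.1% of its 50-base stretches also occur in another transcript, most in 4632433K11Rik.

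The remaining 2 calls of this kind rested on overlapping groups. Zfp146 (chr7:30160487-30169775), a protein made almost wholly of fingers, ran from 34.6 to 39.2 CPM (median 36.6) in vehicle and from 28.7 to 34.8 CPM (median 30.4) in epinephrine libraries. Its change was -0.24 ± 0.0598 (edgeR adjusted p = 0.0385, 0.0676 once the replicate block was added), and 10 of the 12 fits that left out a library ended the call (adjusted p up to 0.148). Zfp646 (chr7:127876914-127885996, 27 fingers) ran from 46.3 to 54.1 CPM (median 47.2) in vehicle and from 28.6 to 49.4 CPM (median 32.6) in epinephrine libraries. The high value was epinephrine 1, and the other 5 epinephrine libraries, at 28.6 to 36.6 CPM, lay below every vehicle library. The change was -0.48 ± 0.121 (edgeR adjusted p = 0.0392), it was -0.60 without epinephrine 1 (adjusted p = 0.000763), and leaving out any of the 11 other libraries ended the call (adjusted p up to 0.149). Zfp646 overlaps Prss53, and it is not known whether the counting kept the strands apart.

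Both members that rose lack a KRAB match. Zfp131 (chr13:119765186-119791477, 5 fingers) encodes a BTB-domain zinc finger protein. It ran from 28.6 to 35.9 CPM (median 30.4) in vehicle and from 35.3 to 45.1 CPM (median 41.9) in epinephrine libraries. Vehicle 6, the highest vehicle library, stood just above epinephrine 2, the lowest epinephrine library. Zfp131 rose by 31.7%, a log2 fold change of 0.40 ± 0.0793 (edgeR adjusted p = 0.0117), and kept its call without any single library (adjusted p 0.0082 to 0.0348). Zfp655 (chr5:145231595-145247306, 6 fingers) encodes a protein that binds the signalling protein VAV. It ran from 36.8 to 60.1 CPM (median 52.6) in vehicle and from 57.0 to 93.5 CPM (median 82.3) in epinephrine libraries. Epinephrine 1, at 57.0 CPM, lay within the vehicle range and the other 5 lay above it, with epinephrine 2 the nearest at 61.0 CPM. The change was 0.57 ± 0.149 (edgeR adjusted p = 0.0428), and 8 of the 12 fits that left out a library ended the call (adjusted p up to 0.103). Of all 97 members, 43 overlap another annotated gene, and of the 14 that passed these are Zfp646, Zfp426 (Gm23316), Zfp943 (Gm7805 and Gm7809), Zfp131 (Gm41077 and Gm46390) and Zfp655 (Gm6287). Reads of such partners may be among their counts where the strands were not kept apart.

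The first finger of a KRAB member that fell, of a member without a KRAB match that fell and of a member that rose are shown by their coding bases. Fingers of this kind occur in members of both directions. Capitals mark the codons of the cysteines and histidines that hold the zinc.
Zfp12: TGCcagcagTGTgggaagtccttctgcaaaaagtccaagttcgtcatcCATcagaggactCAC
Zfp768: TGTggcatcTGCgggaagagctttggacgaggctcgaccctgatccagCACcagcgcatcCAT
Zfp131: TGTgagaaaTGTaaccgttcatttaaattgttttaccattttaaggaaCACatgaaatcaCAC
The finger pattern was counted in each member's longest annotated coding sequence: the median was 9, the highest was 36 (Zfp142), and 5 members had no match (Zfp185, Zfp330, Zfp503, Zfp703 and Zfp839). Of the 37 members with 10 or more fingers, 10 were lower and 0 were higher (0 at an unadjusted p under 0.05, and 0 with DESeq2 or limma), with a median log2 fold change of -0.23. Of the 37 with 4 to 9 fingers, 1 was lower and 2 were higher, with a median of -0.18. Of the 23 with 0 to 3, Zfp746 was lower and 0 were higher (3 at an unadjusted p under 0.05, 1 with DESeq2 and 0 with limma), with a median of -0.07. That is 27.0%, 2.70% and 4.35% lower in these 3 classes. Of all tested genes with a mean count of at least 500, 2.56% were lower and 3.49% were higher. The differences between the classes were not tested. Fingers and KRAB go together: among the members with 10 or more fingers, 6 of 13 with a KRAB match and 4 of 24 without one were lower.

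**Figure D3:**
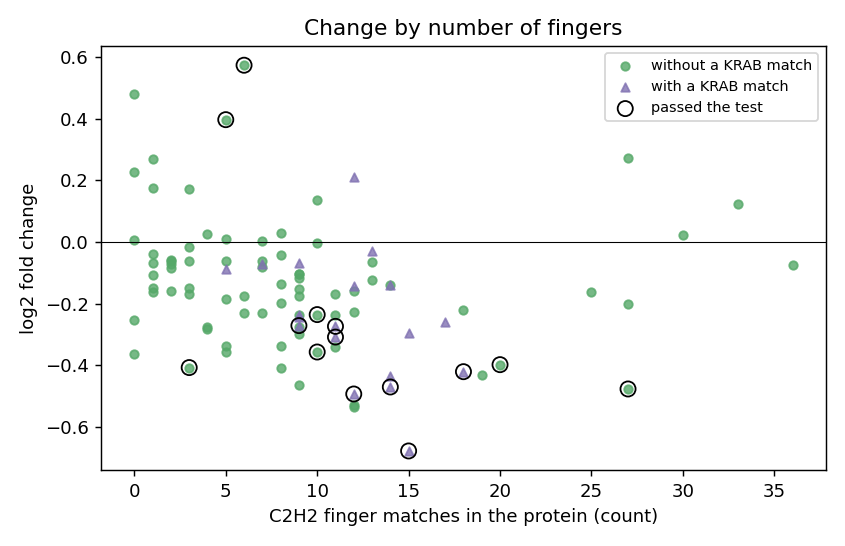
Log2 fold change of each member (vertical axis) against the number of C2H2 finger matches in its longest annotated protein (horizontal axis). Triangles have a KRAB match (19), circles have none (78), and rings mark the 14 that passed the test. Of the 12 ringed points below 0, 10 have 10 or more fingers, as do 37 of the 97 members.

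Members known in fat cells did not pass the test. Of the 9 genes fixed for fat cell development and metabolism, 6 met the rule, with 0 called lower or higher by edgeR, DESeq2 or limma and 1 (Zfp217) at an unadjusted p under 0.05. Among the listed genes that did not meet the rule, Zfp30 was lower (-1.02 ± 0.204, edgeR adjusted p = 0.0113), at a mean count of 69.3. Zfp407 and Zfp69 were not called. Zfp423, which marks and maintains white adipocyte precursors, ran from 31.1 to 53.0 CPM (median 40.7) in vehicle and from 26.2 to 65.4 CPM (median 52.3) in epinephrine libraries. Epinephrine 1 lay below the vehicle range and epinephrine 2, 4 and 5 lay above it, with a log2 fold change of 0.27 ± 0.204 (edgeR adjusted p = 0.604). Zfp467, which favours adipocyte over bone cell fate, ran from 21.1 to 55.2 CPM (median 39.9) in vehicle and from 12.6 to 35.5 CPM (median 27.8) in epinephrine libraries. This was one of the most negative values of any member, -0.53 ± 0.258, with a wide error (edgeR adjusted p = 0.328). For Zfp217, which promotes adipogenesis, vehicle libraries held 34.5 to 53.9 CPM and epinephrine libraries 28.2 to 38.9 CPM. Its value of -0.34 ± 0.12 did not pass (edgeR adjusted p = 0.144), but did with the replicate block (0.0329). Zfp521, an inhibitor of adipogenesis, had -0.20 ± 0.221 (edgeR adjusted p = 0.772). Zfp516, a cold-induced activator of the thermogenic gene Ucp1, had 0.14 ± 0.101 (edgeR adjusted p = 0.595). Zfp638, a coactivator in early adipogenesis, had -0.06 ± 0.0951 (edgeR adjusted p = 0.869).

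Members that act on RNA, ribosomes or the spindle gave values on both sides of 0. Zfp326, a splicing factor that links RNA polymerase II to messenger ribonucleoproteins, ran from 30.7 to 34.1 CPM (median 32.7) in vehicle and from 33.4 to 39.4 CPM (median 37.1) in epinephrine libraries. The groups nearly separated, but 0.18 ± 0.0556 did not pass (edgeR adjusted p = 0.0978; DESeq2 adjusted p = 0.00571). Zfp106, an RNA-binding protein and the member with the most reads, had 0.17 ± 0.11. Zfp346, which binds double-stranded RNA, had -0.28 ± 0.103, and Zfp207, a spindle assembly protein, had -0.08 ± 0.0564. Zfp622, a ribosome maturation factor, had -0.06 ± 0.156, and Zfp598, the ubiquitin ligase that senses collided ribosomes, had -0.16 ± 0.133. None of these 6 passed edgeR's test or limma's, 1 passed DESeq2's, and 2 had an unadjusted p under 0.05. The ubiquitin ligase Zfp91 (-0.06 ± 0.0634) and the SUMO ligase Zfp451 (-0.10 ± 0.0752) did not pass either.

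Sequence-specific regulators without a KRAB match numbered 9 in the rule, and 0 passed edgeR, DESeq2 or limma, with 3 at an unadjusted p under 0.05, all lower. Some of them may still carry a KRAB domain that the pattern missed. The lowest value was that of Zfp263, -0.30 ± 0.099 (edgeR adjusted p = 0.116, and 0.0051 without epinephrine 1), where vehicle libraries held 29.4 to 34.7 CPM and epinephrine libraries 22.7 to 34.8 CPM. The high epinephrine value was again that of epinephrine 1. Zfp574 had -0.22 ± 0.0872, Zfp384 -0.13 ± 0.0502, and Zfp410, which controls the gene of the chromatin remodeller CHD4, -0.18 ± 0.102. The other 5, Zfp148, Zfp281, Zfp335, Zfp219 and Zfp740, had values from -0.12 to 0.03. Zfp281 and Zfp148 bind GC-rich DNA and had 0.03 or less on either side of 0.

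Among 7 chromatin cofactors, Zfp217 included, 0 passed edgeR, DESeq2 or limma, and 2 had an unadjusted p under 0.05. Zfp592, Zfp687 and Zfp532, which act in 1 complex, had -0.20 ± 0.093, -0.18 ± 0.182 and -0.0045 ± 0.149. Zfp644, a partner of the H3K9 methyltransferases G9a and GLP, had 0.0030 ± 0.122, and Zfp462, a protein of heterochromatin, had 0.12 ± 0.185. Zfp703, a corepressor cofactor, ran from 56.0 to 127 CPM (median 109) in vehicle and from 98.9 to 187 CPM (median 152) in epinephrine libraries. Its 4 highest libraries were all from epinephrine, and the value was 0.48 ± 0.218 (edgeR adjusted p = 0.288). With the 3 libraries rich in Gpx5 left out, Zfp703 was 0.56 with an adjusted p of 0.0153, and Zfp687 was -0.29 with an adjusted p of 0.0197.

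Compared per length, as RPKM (the CPM divided by the gene length in kilobases), the members' mean levels ran from 2.38 (Zfp462) to 49.1 (Zfp185), with a median of 7.84. After Zfp185 came Zfp207 at 39.6, Zfp703 at 37.2 and Zfp598 at 33.5 RPKM. Zfp207 was even across mice, at 140 to 165 CPM in vehicle and 136 to 149 CPM in epinephrine libraries. Zfp185, which encodes an actin-associated LIM-domain protein, was not: it ran from 58.0 to 472 CPM (median 107) in vehicle and from 70.8 to 457 CPM (median 108) in epinephrine libraries. Its highest values, 472, 457 and 306 CPM, were those of vehicle 2, epinephrine 1 and epinephrine 2, the 3 libraries with the most Gpx5. Its log2 fold change was 0.23 ± 0.634 (edgeR adjusted p = 0.939) over all libraries and -0.10 without those 3 (adjusted p = 0.888). The coefficient of variation among vehicle mice ran from 3.5% (Zfp664) to 97.6% (Zfp185), with a median of 12.5%.

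By level, most calls lay below a mean count of 1000. Of the 59 members with a mean count under 1000, 10 were lower and 0 were higher (2 at an unadjusted p under 0.05, 1 with DESeq2 and 0 with limma), with a median of -0.23. Of the 38 with 1000 or more, Zfp865 and Zfp646 were lower and Zfp131 and Zfp655 were higher, with a median of -0.08. That is 16.9% lower under 1000 and 5.26% lower at 1000 or more, beside 2.56% of all tested genes with a mean count of at least 500. The difference between these shares was not tested. Below the rule's minimum, 231 of 269 numbered Zfp genes passed the filter, and of these 71 were lower and 1 was higher, with a median of -0.38. That is 30.7% lower, beside 3.58% of all genes tested at any level. The gene that rose was Zfp948 (0.76 ± 0.118, edgeR adjusted p = 0.00282). Among the genes under the minimum that were tested, 51 of 151 with a KRAB match and 20 of 75 without one were lower. Just outside the minimum, Zfp160 was lower (-0.40, edgeR adjusted p = 0.0274), while Zfp652 and Zfp414 did not pass.

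**Figure D4:**
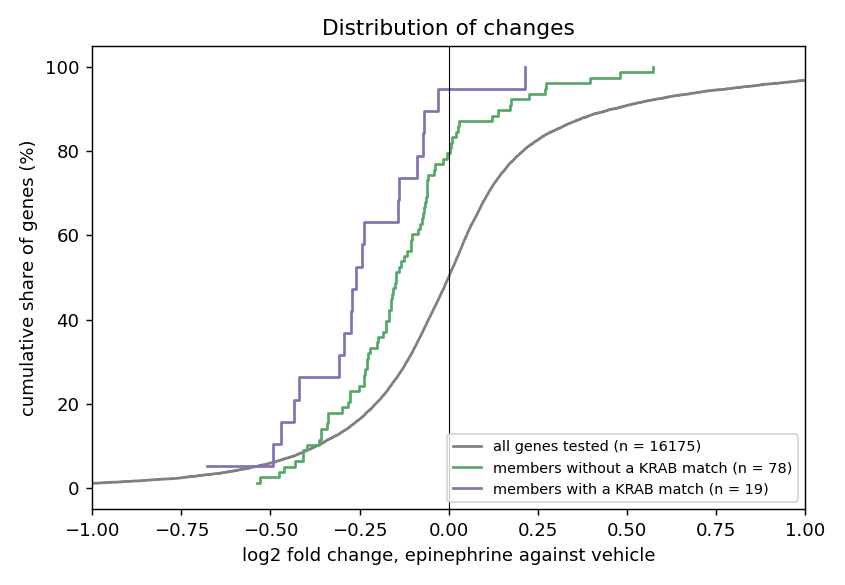
Cumulative share (vertical axis, %) of genes at or below a log2 fold change (horizontal axis, shown from -1 to 1), for all 16175 tested genes (grey), the 78 members without a KRAB match (green) and the 19 with one (purple). Both member curves lie to the left of the grey curve over most of the range, and the medians are -0.0006, -0.15 and -0.26.

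Related families and partners were counted by the same test. Of 61 tested Zbtb, Zkscan and Zscan genes, which also encode C2H2 proteins, 12 were lower and 4 were higher, with a median of -0.19. With a mean count of at least 500, 5 of 27 were lower (18.5%) and 3 were higher (11.1%), with a median of -0.14. At that level 12.4% of the numbered Zfp members and 2.56% of all tested genes were lower, and 2.06% and 3.49% were higher. A fall was thus not particular to the numbered Zfp genes. Of 13 genes of the machinery that KRAB proteins recruit, 2 were lower and 0 were higher (0 higher at an unadjusted p under 0.05 and 0 with DESeq2 or limma). These were Cbx3, which encodes heterochromatin protein HP1 gamma (-0.25 ± 0.0609, edgeR adjusted p = 0.0317), and Morc3, an ATPase of silent chromatin (-0.27 ± 0.0717, edgeR adjusted p = 0.0472). Neither passed limma on the variance-stabilized values. The corepressor Trim28 had -0.08 ± 0.111 (edgeR adjusted p = 0.848) and Setdb1 had -0.19 ± 0.0629 (edgeR adjusted p = 0.116).

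By position, 16 members lie on chromosome 7, and 5 of these were lower. Among all 97 members 12.4% were lower, beside 2.56% of all tested genes with a mean count of at least 500. The share among all genes of chromosome 7 was not counted. Members within 500 kb of each other formed a run of 4, a run of 3 and 10 pairs. The run of 4 on chromosome 7 (127242996 to 127885996) holds Zfp771, Zfp768, Zfp629 and Zfp646. Of these Zfp768 and Zfp646 were lower and all 4 had negative values, from -0.04 (Zfp771) to -0.48 (Zfp646). The run of 3 on chromosome 6 (48017660 to 48445992) holds Zfp777 and Zfp746, which were lower, and Zfp467. In the pair Zfp12 and Zfp316 on chromosome 5, Zfp12 passed and Zfp316 had -0.43 ± 0.294 (edgeR adjusted p = 0.549), with 16.4 to 39.8 CPM in vehicle and 10.4 to 32.9 CPM in epinephrine libraries. Neighbours therefore did not always give the same call.

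Promoter windows (250 bases before to 50 after the gene start, RefSeq, GRCm38.p6) were found for 78 of the 97 members, and for 10 of the 12 that fell. The cyclic AMP response element was searched as TGACGTCA on both strands because beta-adrenergic receptors signal through cyclic AMP. It was present in 5 of the 78 (6.41%), in 1 of the 10 that fell, in 3.58% of genes with a mean count of at least 500 and in 2.03% of all genes with a window. The member that fell with a match was Zfp426, and its neighbour Zfp266 also holds one. The upstream 250 bases of both are shown with the match in capitals, on the minus strand, at chr9:20492747-20492996 for Zfp426 and chr9:20521420-20521669 for Zfp266.
Zfp426: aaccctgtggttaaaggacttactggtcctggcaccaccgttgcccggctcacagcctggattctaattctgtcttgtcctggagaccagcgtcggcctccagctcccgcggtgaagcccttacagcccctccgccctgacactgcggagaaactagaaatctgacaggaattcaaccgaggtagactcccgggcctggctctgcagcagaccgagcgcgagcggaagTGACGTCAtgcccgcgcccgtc
Zfp266: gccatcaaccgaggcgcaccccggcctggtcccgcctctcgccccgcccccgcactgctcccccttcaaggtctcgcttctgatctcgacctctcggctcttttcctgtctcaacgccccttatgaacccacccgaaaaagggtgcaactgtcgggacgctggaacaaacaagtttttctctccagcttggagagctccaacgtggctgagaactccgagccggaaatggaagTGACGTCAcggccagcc
The match begins 22 bases before the start of Zfp426 and 17 bases before that of Zfp266. Zfp426 fell, and Zfp266 had -0.24 ± 0.109 (edgeR adjusted p = 0.288), with 38.4 to 49.4 CPM in vehicle and 31.1 to 44.4 CPM in epinephrine libraries. The AP-1 motif TGANTCA was found in 3 of the 78 members' windows and in 0 of the 10 that fell, beside 6.30% of genes with a mean count of at least 500. A GC box, GGGCGGGG, was found in 32 of the 78 (41.0%) and in 4 of the 10 that fell, beside 40.7% of genes with a mean count of at least 500. Members' windows had a median GC content of 61.3%, KRAB members' windows 54.2%, and those of genes with a mean count of at least 500 had 61.7%. A match describes the letters only.

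Per library, the 97 members made up 0.441% ± 0.035 of all counts in the vehicle group and 0.386% ± 0.041 in the epinephrine group (SD, n = 6 per group). Their mean log2 CPM ran from 5.11 to 5.25 in vehicle and from 4.96 to 5.16 in epinephrine libraries. The groups overlapped through epinephrine 1, at 5.16. For KRAB members the mean ran from 4.83 to 5.08 in vehicle and from 4.63 to 4.86 in epinephrine libraries. These groups overlapped as well, with epinephrine 1 at 4.86 above vehicle 5 at 4.83. Within each replicate number the epinephrine library was the lower, but the labels do not say what a number shares. The difference in the members' mean between the groups was -0.12 over numbers 1 to 3 and -0.19 over numbers 4 to 6, and the 3 libraries rich in Gpx5 are all in the first set. With numbers 1 to 3 alone, 0 members and 0 of all genes passed edgeR's test, 13 members had an unadjusted p under 0.05 and 67 had a negative value. With numbers 4 to 6 alone, 19 were lower and 2 higher. Without the 3 libraries rich in Gpx5, 27 members were lower and 5 higher, and 82 had a negative value.

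**Figure D5:**
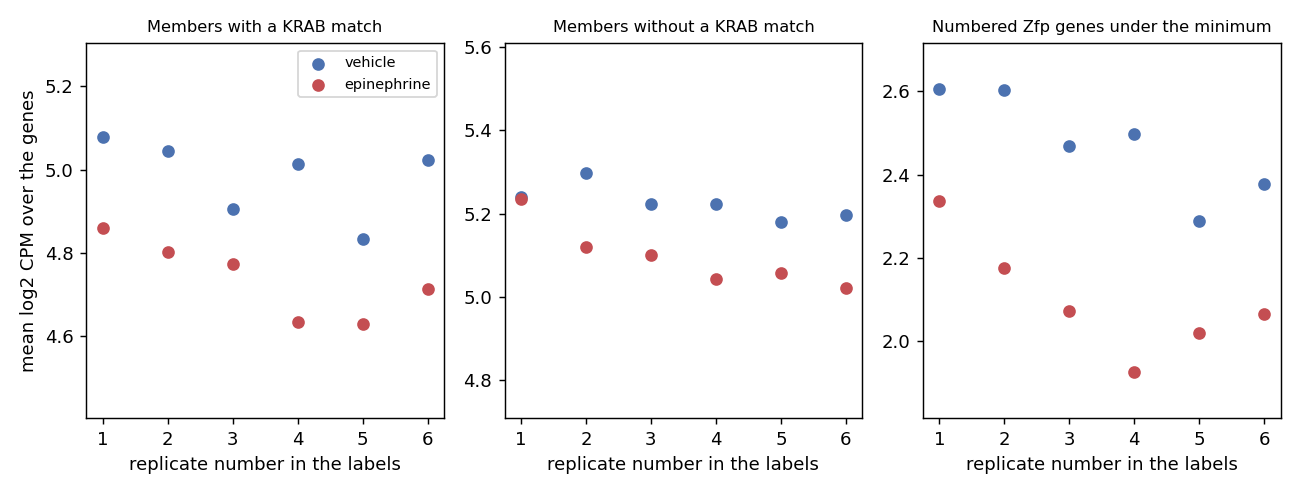
Mean log2 CPM (vertical axis, the same span in each panel) of members with a KRAB match, members without one and tested numbered Zfp genes under the count minimum, in each library by its replicate number in the labels (horizontal axis). Vehicle is blue and epinephrine red. In every panel and at every number the epinephrine library is the lower, by very little at number 1 for members without a KRAB match.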

How the data were processed

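RNA-seq libraries of 12 mouse fat pads were compared. Per the submitters' processing notes, reads passed through FastQC, cutadapt, HISAT2, featureCounts and DESeq2 with build mm10, in versions not given in the sources used here, as are the strand setting and annotation. The authors deposited whole-number read counts per gene, not normalized, and a second table of variance-stabilized values on a log2-like scale, used here only in 1 alternative.

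Low genes were removed by filterByExpr of edgeR (at least 10 counts, total at least 15), and the rest were scaled with TMM and tested with glmQLFit (robust) and glmQLFTest (R 4.3.3, edgeR 4.0.16), all 16175 genes at once. The SE is the log2 fold change divided by the square root of F. RPKM used the gene lengths listed in the count table. The median SE over the members was 0.109. Mice are separate animals per the labels. The fit was tested on simulated data, drawn with a smaller spread than the common one of these libraries. Finger and KRAB matches were sought in coding sequences of GENCODE M21 (at least 10 of 12 KRAB places), not in a protein table as planned. Positions, promoters and overlapping genes came from RefSeq tables (GRCm38.p6), and all 97 members matched by identifier.

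The members and lists were chosen with earlier results of these data known. Named were up to 12 members lower and 12 higher with the smallest p, members of the role lists, the 4 highest per length and 3 on each side of the count minimum. Other members are named as neighbours, as holders of a motif or feature, or as the single exception in a count, after their values were seen. Zfp30 and Zfp932, role list genes under the count minimum, are named because they passed the test. In all 6 pairs of libraries that share a number, the deviations from the group mean correlated positively across genes (0.262 to 0.799), so by the rule of 0.1 the numbers pair the libraries, but only 3 of 12 libraries matched their own number best. The labels do not say what a number shares. The alternatives were 3 other scalings, 2 other filters, DESeq2 1.42.0, limma 3.58.1 on the variance-stabilized values, the replicate block, the epididymal score (mean log2 CPM of epididymis and testis markers) as a covariate, subsets of libraries, a count minimum of 1000 and a threshold of 0.01.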

Additional observations from a re-analysis of the deposited data

Results flagged for a closer look

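Of 102 groups of 6 libraries examined, 5 held a library far from the others by Dixon's criterion, which chance exceeds in about 1 in 20 groups. For Zfp746 in the epinephrine group, epinephrine 4 lay low at 19.9 CPM, with the others at 22.4 to 23.7 CPM. For Zfp622, the ribosome maturation factor, epinephrine 1 lay high at 46.2 CPM, with the others at 26.1 to 33.3 CPM. For the chromatin cofactor Zfp687, vehicle 2 lay high at 56.0 CPM, with the others at 34.4 to 36.9 CPM. For Zfp185, vehicle 2 lay high at 472 CPM, with the others at 58.0 to 152 CPM. The total count of epinephrine 2, 31731730, lay above those of the other epinephrine libraries, 24821601 to 26825341.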

How the results depend on the processing

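No member that passed the test changed direction under any alternative that was run, and between 67 and 86 of the 97 members had a negative log2 fold change in each. Against 12 lower and 2 higher members, the counts were 9 and 2 with RLE scaling, 16 and 1 with upper quartile scaling, 30 and 2 with library size alone, 12 and 1 without a filter, 15 and 3 with DESeq2, and 10 and 2 with limma. With a count minimum of 1000, 2 of 38 members were lower and the median was -0.083. The median was -0.26 with library size alone, where that of all genes was -0.11. The epididymal score as a covariate gave 25 lower, and leaving out the libraries with Gpx5 above 0.5% gave 27 lower and 5 higher. Numbers 1 to 3 alone gave 0 lower and 0 higher with edgeR (13 members at an unadjusted p under 0.05), with 3 libraries per group, and numbers 4 to 6 alone gave 19 lower. A threshold of 0.01 left 5 lower and 0 higher. Leaving out each library in turn gave 7 lower (without vehicle 4) to 24 lower (without epinephrine 1), 1 to 2 higher, and a median of -0.20 to -0.11. The cause of these differences was not tested. With the replicate block, 8 members were lower, 7 of them among the 12. It ended the calls of Zfp426, Zfp943, Zfp267, Zfp777 and Zfp146, added Zfp217, and changed no other call among the members named. Zfp12, Zfp866, Zfp746 and Zfp768 lost their calls only with numbers 1 to 3 alone. Each member averaged over 500 counts, and the smallest change called was that of Zfp146 (-0.24 ± 0.0598), while larger ones such as those of Zfp217 (-0.34 ± 0.12) and Zfp263 (-0.30 ± 0.099) did not pass.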
